A study of Mus musculus with 40 samples.

Results

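The adipogenic transcription factors described here are 10 genes whose proteins drive or tune the making and upkeep of fat cells: Pparg, Cebpa, Cebpb, Cebpd, Ebf1, Ebf2, Zfp423, Zfp516, Klf15 and Esrra. They were chosen by name, as the rows of the deposited count table whose Ensembl identifiers carry these symbols, and 10 of 10 were found among 52636 genes. Messenger RNA was measured by bulk sequencing of brown adipose tissue, the heat-producing fat of the mouse, in 40 male C57BL/6 mice that fall into 8 groups of 5. Control mice received a single intraperitoneal injection of 40 mg/kg of an isotype antibody against ragweed, a plant antigen absent from the mouse. Jag antibody mice received 20 mg/kg each of antibodies that block Jag1 and Jag2, which are ligands for Notch receptors. Tissue was collected 15 h, 5 d or 7 d after the injection, which gives 6 of the groups. The other 2 groups, 1 under each antibody, were also injected every day from day 2 with the thyroid hormones T4 (1 ug per g of body weight) and T3 (0.05 ug per g) and were collected at 7 d. No mouse went without an antibody, and both antibody treatments reached the whole animal rather than the fat alone. The age is given as 10 to 12 weeks in the series' design text and as 10 to 14 weeks in the sample protocol. The title of the series asks about Notch signalling in the thyroid and adult homeostasis, so the comparisons ask how ligand blockade, added thyroid hormone and time since injection move these factors in brown fat.

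Adipocyte formation runs as a cascade. Cebpb and Cebpd are switched on early in precursors and lead to Pparg and Cebpa, which then maintain each other and the genes of lipid storage in the mature fat cell. Ebf2 and Zfp516 take part in the brown programme, Zfp423 marks committed precursors and holds back the thermogenic programme in white fat cells, Klf15 activates genes of amino acid breakdown, and Esrra drives mitochondrial genes together with PGC-1 coactivators.

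The upstream windows of Klf15, Cebpb and Esrra are shown because these 3 members gave the largest called differences between groups. Each is the 250 bases before the RefSeq transcription start on GRCm38.p6, written 5′ to 3′ along the gene: Klf15 on the plus strand at chr6:90462326-90462575, Esrra on the minus strand at chr19:6921809-6922058 and Cebpb on the plus strand at chr2:167688665-167688914. Capitals mark matches, on either strand, to the 6 motifs searched.
Klf15: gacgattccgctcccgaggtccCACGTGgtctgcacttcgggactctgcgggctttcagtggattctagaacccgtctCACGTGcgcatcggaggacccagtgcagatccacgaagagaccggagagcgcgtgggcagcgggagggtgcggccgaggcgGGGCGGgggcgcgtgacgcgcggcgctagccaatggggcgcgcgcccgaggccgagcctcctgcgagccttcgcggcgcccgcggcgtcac
Esrra: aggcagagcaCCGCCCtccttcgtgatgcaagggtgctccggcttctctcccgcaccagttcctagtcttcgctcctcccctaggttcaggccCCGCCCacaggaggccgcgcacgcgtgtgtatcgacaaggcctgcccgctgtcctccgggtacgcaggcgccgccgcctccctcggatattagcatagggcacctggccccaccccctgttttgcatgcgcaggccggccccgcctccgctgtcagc
Cebpb: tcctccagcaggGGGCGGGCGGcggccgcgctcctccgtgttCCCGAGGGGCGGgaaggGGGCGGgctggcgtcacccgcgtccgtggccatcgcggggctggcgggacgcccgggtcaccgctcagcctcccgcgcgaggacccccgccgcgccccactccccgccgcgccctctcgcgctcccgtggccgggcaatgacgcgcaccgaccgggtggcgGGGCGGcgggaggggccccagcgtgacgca
The motifs were AGGTCA, the core bound by many nuclear receptors, TNAAGGTCA, its extended form for the ERR family, TTNCNNAA for C/EBP proteins, CCCNNGGG for EBF proteins, GGGCGG, the GC box of Sp and KLF proteins, and the E-box CACGTG. Matches on the other strand read as the reverse complement, such as CCGCCC for the GC box, and the ERR form contains the AGGTCA core. In the Klf15 window CACGTG stands 2 times and the GC box 1 time. The Esrra window holds the GC box 2 times, as CCGCCC. Among the Cebpb matches are 5 GC boxes, 2 of which share bases with each other, and 1 EBF motif, CCCGAGGG, which overlaps the third GC box. Of 32851 mouse windows of the same length, 6.02% held CACGTG, 32.7% the GC box, 11.8% the EBF motif, 36.8% the C/EBP motif, 14% AGGTCA and 1.14% the ERR form. These matches describe the letters of the windows and were not tested as binding sites.

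On the GRCm38 assembly (GENCODE M21) the members are single protein-coding genes spread over 9 chromosomes. Pparg lies at chr6:115360951-115490399 and Klf15 on the same chromosome at chr6:90462576-90475238. The C/EBP genes are compact, Cebpa at chr7:35119293-35121928, Cebpb at chr2:167688915-167690418 and Cebpd at chr16:15887286-15891031, with 2.64, 1.5 and 3.75 kb of exon. Ebf1 lies at chr11:44617317-45008091, Ebf2 at chr14:67233292-67430918, Zfp423 at chr8:87661810-87959595, Zfp516 at chr18:82910663-83005314 and Esrra at chr19:6910977-6921813. The EBF genes and Zfp423 span 390.8, 197.6 and 297.8 kb, and counts cover the whole gene, not a site within it.

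All 10 genes passed the filter on low counts that left 17079 genes for testing. The libraries held 12217623 to 36511893 counts, and levels are given as CPM, the counts of a gene scaled to a common library total with TMM factors. Divided by exonic length, which allows levels to be compared between genes, Cebpa stood highest with a median of 170 CPM per kb over the 40 libraries, followed by Pparg with 126. Both belong to the top of the tissue's transcripts, at the 98.6 and 98.2 percentiles of the tested genes. Cebpb followed at 34.2, Esrra at 23.8 and Klf15 at 17.8 CPM per kb. The EBF genes lay close together, Ebf2 at 9.09 and Ebf1 at 7.98 CPM per kb. Least abundant were the zinc finger genes Zfp423 and Zfp516, at 1.69 and 1.49, and Cebpd at 0.831 CPM per kb, the last with 24 to 465 counts per library. The members also differed in how far they ranged: from the lowest to the highest library Pparg varied 2.45-fold and Cebpa 2.74-fold, against 12.1-fold for Cebpd and 15.7-fold for Klf15. The 2 most abundant factors were thus the steadiest and Klf15 varied most.

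**Figure D1:**
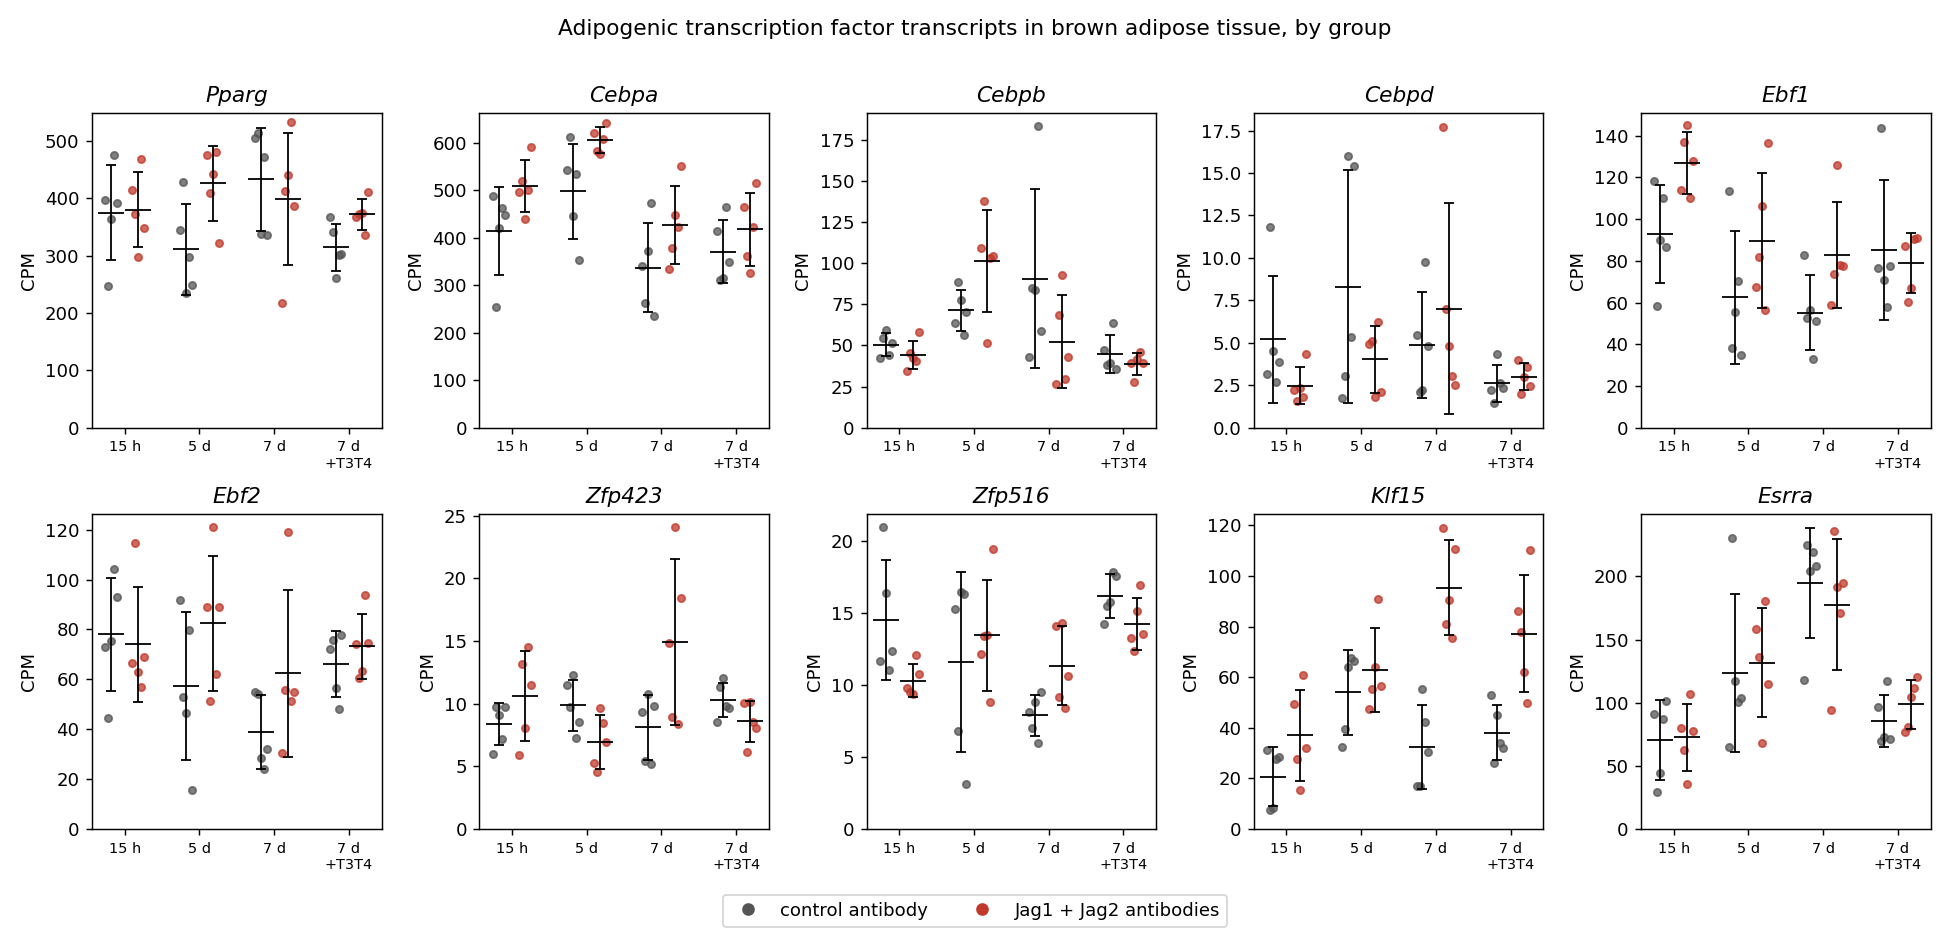
Transcript level of each of the 10 factors in CPM (vertical axis, linear and starting at 0) in the 8 groups, 1 point per mouse; bars show the mean and SD of 5 mice. Klf15 in Jag antibody mice at 7 d (75.5 to 119 CPM) lies above every control mouse at 7 d (16.9 to 55.2 CPM), and Esrra is lower in both hormone groups than in most mice at 7 d without hormone.

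All 10 brown fat marker genes, Ucp1 among them, averaged above 1 CPM in each group, and their summed level was 2000 to 44200 CPM. All 8 endothelial and all 8 pericyte and smooth muscle genes also averaged above 1 CPM in each group. A mean above 1 CPM thus does not by itself identify the tissue. Other tissue was present unevenly. The summed level of 8 skeletal muscle genes was 1020 to 176000 CPM in control mice at 5 d and 0.877 to 43.8 CPM in Jag antibody mice at 5 d. Control mouse 2 at 15 h had the lowest brown fat sum of all, 2000 CPM, with a macrophage and neutrophil sum of 3060 CPM against 107 for the lowest mouse of its group. Control mouse 4 at 7 d had the fewest counts, 12217623, and the steepest loss of long transcripts (a slope of log2 CPM on log2 exonic length of -0.58). In whole tissue, fewer cells of a type and less RNA per cell cannot be told apart.

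The Jag antibodies changed 1 of the 10 factors, Klf15, which rose at 7 d. In the remaining antibody comparisons, made at 15 h, at 5 d and in hormone-treated mice, 0 of 10 were called. A gene is called here when its adjusted p in the edgeR fit is under 0.05. Among all tested genes the antibodies called 1.14% at 15 h and 8.02% at 5 d. For 7 d the share was 2.5% (1.21% higher), and for hormone-treated mice 1.14%. An unadjusted p under 0.05 was reached by 1 member at 15 h (12% of all tested genes), 1 at 5 d (22.9%), 5 at 7 d (20.5%) and 1 with hormone (11.9%). DESeq2 called 2 members at 7 d and 0 in each of the other 3. The median log2 fold change of the 10 factors was 0.03 at 15 h, beside -0.04 over all tested genes, and 0.25 at 5 d, beside 0.04. It was 0.53 at 7 d without hormone, beside 0.05, and 0.16 with hormone, beside -0.02.

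**Figure D2:**
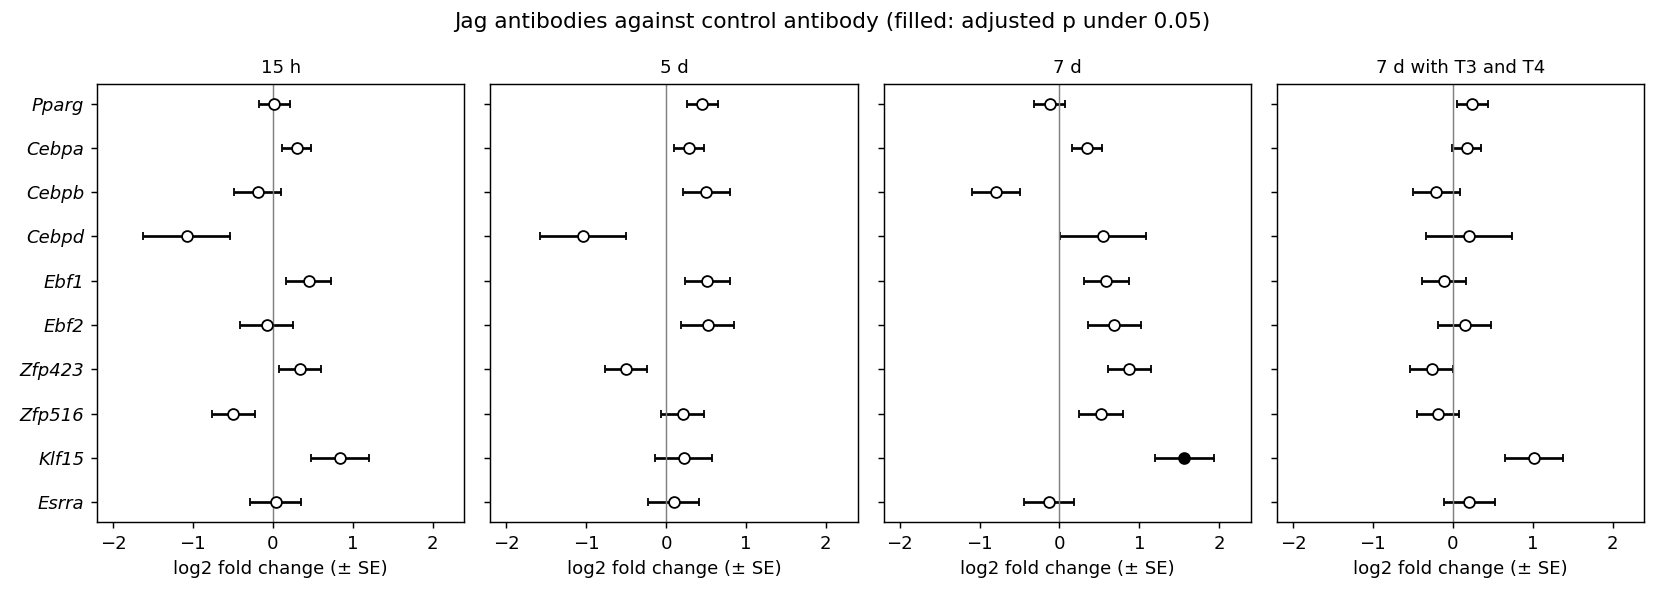
Log2 fold change of each factor in Jag antibody mice against control mice (horizontal axis, ± SE of the edgeR fit, 5 mice per group) in 4 panels by time and hormone; filled points have an adjusted p under 0.05. Klf15 at 7 d (1.56 ± 0.37) is the filled point, and its other estimates lie to the right of 0 at 0.84, 0.22 and 1.02.

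Klf15, a Krüppel-like factor that rises in fasting and activates amino acid catabolism, gave the largest antibody difference of the set. At 7 d the control mice had 17.0, 16.9, 55.2, 42.2 and 30.3 CPM and the Jag antibody mice 119, 81.1, 90.4, 75.5 and 111 CPM. The groups did not overlap, which held for 1 of 10 members and for 3.31% of all tested genes in this comparison. The difference was 1.56 ± 0.37 on the log2 scale (SE; adjusted p = 0.0178), or 2.95-fold. The call was lost without control mouse 1 (adjusted p = 0.0515), control mouse 2 (0.0855) or Jag antibody mouse 6 (0.0518), and when only the 2 groups were fitted (0.0837), while the log2 fold change over all these alternatives stayed between 1.39 and 1.84.

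With hormone, Klf15 measured 52.9, 26.2, 45.2, 33.9 and 31.9 CPM in control mice and 86.0, 77.7, 62.2, 49.8 and 110 CPM in Jag antibody mice. Here 4 of 5 Jag antibody mice lay above every control mouse, and the difference of 1.02 ± 0.36 did not pass (adjusted p = 0.189), though it did in a fit of the 2 groups alone (0.0391). At 15 h the estimate was 0.84 ± 0.36 (adjusted p = 0.301), with 15.4 to 60.7 CPM under the Jag antibodies and 7.56 to 31.4 under the control antibody, beside adipocyte marker sums that did not overlap. At 5 d it was 0.22, with both groups between 32.3 and 90.8 CPM. The change of the antibody difference from 5 d to 7 d was 1.34 ± 0.51 (adjusted p = 0.151) and its change with hormone was -0.54 (adjusted p = 0.623), so no difference between these antibody effects was shown.

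The genes listed as KLF15 targets include enzymes and carriers of amino acid and energy metabolism and the clock gene Per1. At 7 d 2 were higher and 0 lower among 9 tested, beside 2.5% of all tested genes called and 1.21% higher. Their median log2 fold change was 1.00, beside 0.05 over all tested genes. Bcat2, the mitochondrial aminotransferase of branched-chain amino acids, rose by 1.40 ± 0.22 (adjusted p = 0.000342). It measured 141 to 227 CPM in control mice and 396 to 658 CPM in Jag antibody mice, without overlap. Prodh, which starts proline breakdown, rose by 1.24 ± 0.28 (adjusted p = 0.0117), from 31.9 to 48.5 CPM in control mice to 82.9 to 133 CPM. With hormone 3 of the 9 were higher and 0 lower, beside 1.14% of all tested genes called. They were Hpd of tyrosine breakdown by 2.91 ± 0.55, Prodh by 2.06 ± 0.28 and Bcat2 by 1.58 ± 0.22. The other genes of the list were not called at 7 d. At 5 d the carrier gene Slc25a25 fell by 1.84 (adjusted p = 0.0135), a call lost with the muscle score as a covariate (0.387). At 15 h 0 of 9 were called. The shares of all tested genes called were 8.02% at 5 d and 1.14% at 15 h. Over the 40 libraries Klf15 correlated with Bcat2 at r = 0.80 and with Prodh at r = 0.79, a description of points that share their libraries and scaling. Both genes were called in the same 7 d comparison as Klf15, so r includes that shared group difference.

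**Figure D3:**
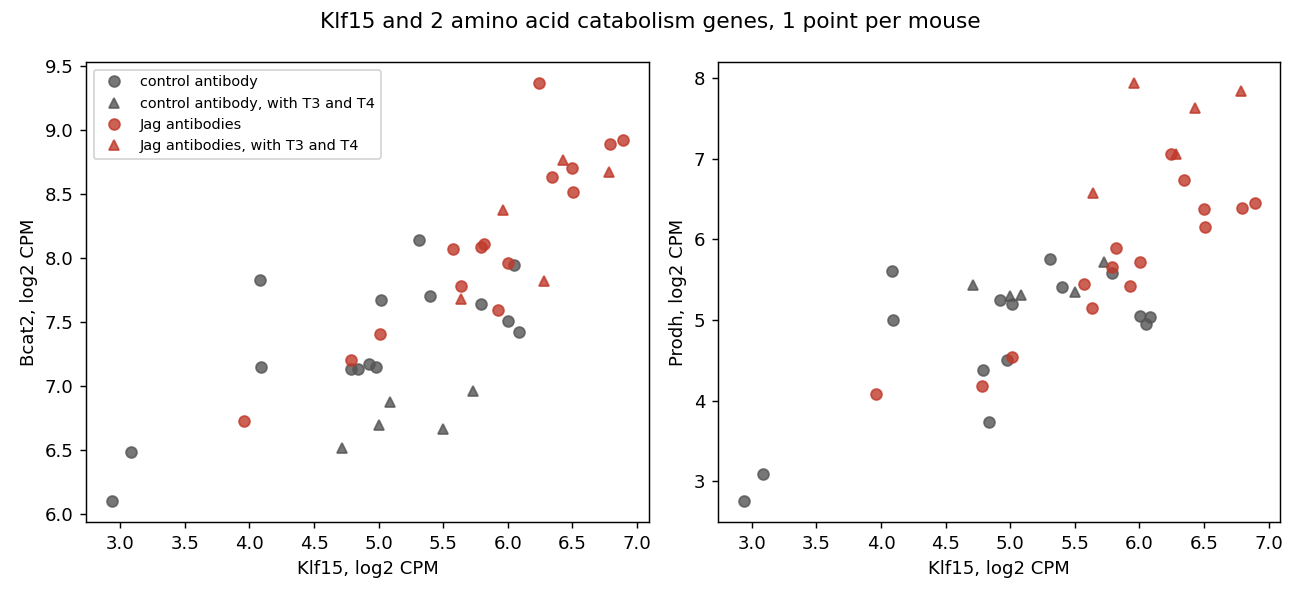
Klf15 (horizontal axis) against Bcat2 (left panel) and Prodh (right panel), each in log2 CPM, 1 point per mouse for 40 mice; colour gives the antibody and triangles mark mice given T3 and T4. Pearson's r is 0.80 and 0.79, and in the left panel the control mice with hormone sit below the other mice of like Klf15 level.

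Beside these differences at 7 d, the summed level of 8 pericyte and smooth muscle markers was 620 to 1140 CPM in control mice and 222 to 434 CPM in Jag antibody mice. The adipocyte sum was 29700 to 53500 and 23700 to 40600 CPM, and the progenitor and fibroblast sum 722 to 1210 and 532 to 962 CPM. Their part in the Klf15 result was not tested. With the muscle score as a covariate Klf15 differed by 1.53 (adjusted p = 0.0201), and with offsets for each library's trend on transcript length and GC content by 1.68 (adjusted p = 0.0065).

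Among the other members at 7 d, Zfp423 measured 9.33, 5.44, 10.8, 5.19 and 9.85 CPM in control mice and 14.8, 8.90, 24.1, 8.35 and 18.5 CPM in Jag antibody mice. Its groups overlapped, and the difference of 0.87 ± 0.27 did not pass (adjusted p = 0.068), although DESeq2 called it. Cebpb differed by -0.79 ± 0.30 (adjusted p = 0.137), Ebf2 by 0.69 ± 0.33 (0.236) and Ebf1 by 0.58 ± 0.28 (0.232). The other 5 members had estimates from -0.13 to 0.54. At 5 d the only member with an unadjusted p under 0.05 was Pparg, the nuclear receptor at the head of fat cell identity, at 0.45 ± 0.19 (adjusted p = 0.146). It measured 344, 429, 235, 298 and 248 CPM in control mice and 475, 409, 443, 481 and 322 CPM in Jag antibody mice, so that the groups overlapped.

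The Jag antibodies called 8.02% of all tested genes at 5 d and 2.5% at 7 d. The partners and relatives of these factors, 43 tested of 45 listed, included 1 higher and 0 lower under the Jag antibodies at 7 d. It was Rxra, the receptor that pairs with PPARG on DNA, which rose by 0.72 ± 0.17 (adjusted p = 0.0192), a call lost with length and GC offsets (0.0568) and in the fit of the 2 groups alone (0.224). At 5 d 3 were higher and 1 lower: Ppargc1a, the coactivator of thermogenesis, by 1.11 ± 0.36, Foxo1, a forkhead factor held back by insulin, by 1.08 ± 0.28, Cebpz by 0.56 ± 0.14 and Tbx15, a T-box factor, by -3.20 ± 0.99. None of these 4 calls at 5 d held with the muscle score as a covariate (adjusted p from 0.0862 for Cebpz to 0.903 for Tbx15). The log2 fold change with it was 0.61 for Cebpz, 1.11 for Foxo1, 0.90 for Ppargc1a and -0.32 for Tbx15, and the muscle sums of the 2 groups did not overlap. Under the antibodies 0 of 43 were called at 15 h and 0 in hormone-treated mice.

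Of the 26 PPARG and C/EBP target genes, 2 were higher and 0 lower at 15 h, 1 higher and 2 lower at 5 d, and 0 were called in either set of mice collected at 7 d. Among all tested genes 1.14% were called at 15 h and 8.02% at 5 d. At 15 h Cidec, a coat protein of the lipid droplet, rose by 1.01 ± 0.24 (adjusted p = 0.0399). That call was lost when only the 2 groups were fitted (0.353) and held in 3 of 10 fits that left out a mouse. The adipocyte sum at 15 h was 11800 to 28900 CPM in control mice, lowest in mouse 2, and 30500 to 35700 CPM in Jag antibody mice, without overlap. Its part in the calls at 15 h was not tested. Cidec is itself 1 of the 8 genes in this sum, so the 2 are not independent. At 5 d the hormones of the fat cell Retn and Lep fell by 3.01 and 2.20, and Aqp7, a glycerol channel, rose by 0.73. With the muscle score Retn was at -1.92 (adjusted p = 0.377), Lep at -2.02 (0.132) and Aqp7 at 0.54 (0.478), so the calls were lost while the estimates kept their sign. Of the 18 ESRRA targets 0 were called in any antibody comparison.

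With T3 and T4, 3 members passed the test in control mice. At 7 d, 1 factor rose (Zfp516) and 2 fell (Cebpb and Esrra), against 43.2% of all tested genes called, 20.3% higher and 22.9% lower, so that 3 of 10 lies below the background of this comparison. At an unadjusted p under 0.05 there were 6 members, against 50.7% of all tested genes, and DESeq2 called 6. The median over the 10 was 0.19 beside 0.04 over all tested genes. In Jag antibody mice the hormones lowered 1 of 10 (Zfp423), against 9.5% of all tested genes called and 5.21% lower, with a median of -0.20 beside -0.04. The hormone comparison in control mice and the antibody comparison at 7 d use the same control mice, so their values are not independent.

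**Figure D4:**
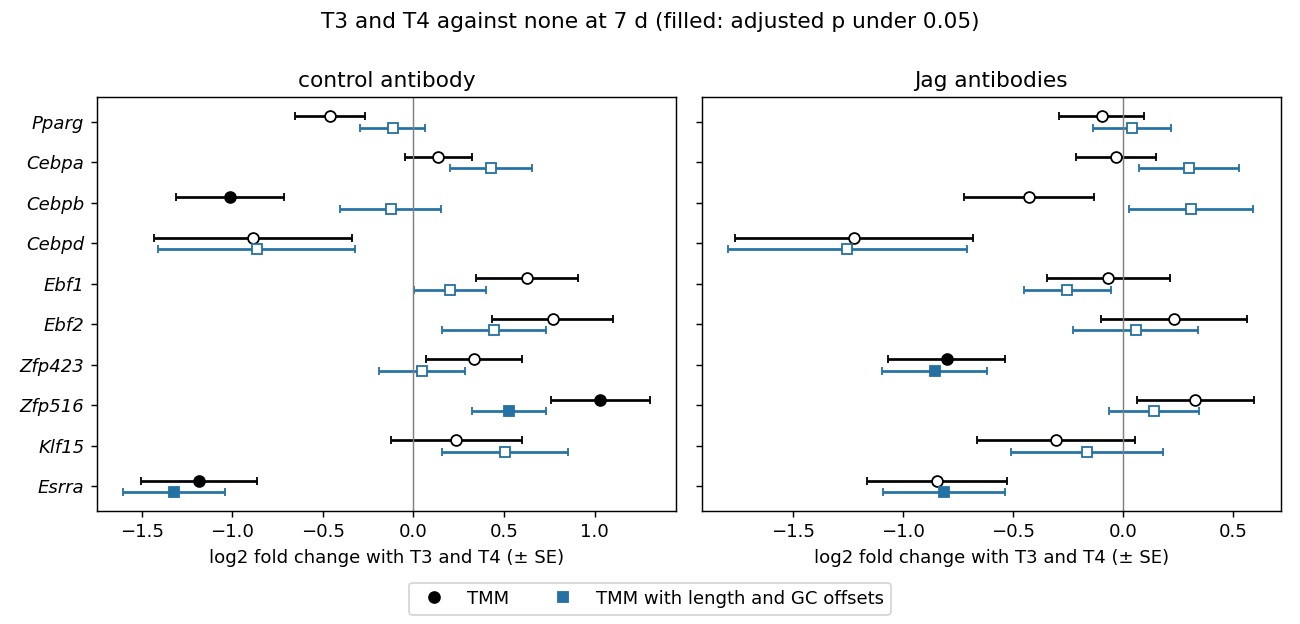
Log2 fold change of each factor with T3 and T4 against none at 7 d (horizontal axis, ± SE, 5 mice per group) in control mice (left) and Jag antibody mice (right), from TMM scaling (circles) and with length and GC offsets added (squares); filled points have an adjusted p under 0.05. Esrra in control mice is filled at -1.19 and -1.32, while Cebpb moves from -1.01 to -0.13.

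Esrra, the orphan receptor ERRα that drives genes of oxidative phosphorylation, showed the largest hormone difference among the members in control mice. It measured 118, 225, 204, 219 and 208 CPM without hormone and 96.3, 69.8, 72.8, 117 and 71.6 CPM with it. The groups did not overlap, as for 2 of 10 members and 29.8% of all tested genes here, though control mouse 1 without hormone came close to the highest mouse with it. Esrra fell by 1.19 on the log2 scale (SE 0.32, adjusted p = 0.00333), a 2.28-fold difference. In Jag antibody mice it measured 94.5, 236, 192, 171 and 195 CPM without hormone and 76.8, 80.3, 105, 112 and 121 CPM with it. That difference was -0.85 ± 0.32 (adjusted p = 0.0823), and passed with length and GC offsets (-0.81, adjusted p = 0.0493). The antibody by hormone difference of Esrra was 0.34 (adjusted p = 0.732). No member was called for a difference in hormone response between the antibodies (0 of 10, 0 by DESeq2, against 0.00586% of all tested genes, and 1 at an unadjusted p under 0.05, against 12.3%). That one was Zfp423, at -1.14 ± 0.38 (adjusted p = 0.374).

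Among the 18 listed ESRRA targets, 6 fell with hormone in control mice and 1 rose, beside 22.9% of all tested genes lower and 20.3% higher. With 43.2% of all tested genes called, these counts are not read as particular to the targets. Cox5b, a subunit of cytochrome oxidase, fell by 2.20 (adjusted p = 5.35e-05), Sdhb of succinate dehydrogenase by 1.5, the cytochrome c gene Cycs by 1.31 and Acadm, which oxidises medium-chain fatty acids, by 1.14. Pdk4, a kinase that holds back pyruvate oxidation, rose by 0.78. The list's median was -0.31, beside 0.04 over all tested genes. In Jag antibody mice 2 of the 18 fell, Cycs by 0.92 and Acadm by 0.76, beside 5.21% of all tested genes lower. The list's median there was -0.04, the same as over all tested genes.

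Zfp516, a zinc finger activator of Ucp1 that is induced by cold, rose with hormone in control mice. It measured 8.10, 7.02, 8.83, 5.95 and 9.51 CPM without hormone and 14.2, 15.5, 15.8, 17.9 and 17.6 CPM with it, without overlap. The difference was 1.03 ± 0.27 (adjusted p = 0.00266), 2.04-fold. With length and GC offsets it was 0.53 (adjusted p = 0.0409). In Jag antibody mice the difference was 0.33 (adjusted p = 0.438), with 8.41 to 14.3 CPM without and 12.3 to 16.9 CPM with hormone. Without hormone Zfp516 was at -0.56 ± 0.27 from 5 d to 7 d in control mice (adjusted p = 0.175, not called). Ucp1 itself was called lower with hormone in control mice (-1.61 ± 0.42, adjusted p = 0.00229). In Jag antibody mice Ucp1 was at -0.80 with hormone (adjusted p = 0.2, not called).

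Cebpb, an early factor of the cascade that also responds to inflammatory and hormonal signals, fell with hormone in control mice in the fit without offsets. Its levels were 42.8, 84.7, 83.4, 183 and 59.0 CPM without hormone and 47.3, 37.8, 39.4, 63.7 and 35.8 CPM with it. These overlapped, and mouse 4 without hormone stood far above the rest. Cebpb fell by 1.01 (SE 0.30, adjusted p = 0.00644). Without control mouse 4 the difference was -0.57 (adjusted p = 0.0964), leaving 2 called members in this comparison, and with length and GC offsets it was -0.13 (adjusted p = 0.759). The Cebpb transcript is short and GC-rich, with 1.5 kb of exon at 67.2% GC, and the per-library length slopes were -0.58 to -0.07 without hormone and 0.04 to 0.27 with it.

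Several other factors sat near the threshold in control mice given hormone. Pparg was at -0.46 ± 0.19 (adjusted p = 0.0531), Ebf2 at 0.77 ± 0.33 (0.0598) and Ebf1 at 0.63 ± 0.28 (0.0687). DESeq2 called them, and with the offsets they shrank to -0.12, 0.44 and 0.20. Cebpa, Cebpd, Zfp423 and Klf15 lay between -0.89 and 0.34, none with an unadjusted p under 0.05. With the Jag antibodies Zfp423 fell by 0.80 (SE 0.27, adjusted p = 0.0499), from 14.8, 8.90, 24.1, 8.35 and 18.5 to 10.0, 6.12, 10.1, 8.50 and 8.09 CPM. The groups overlapped, and the call was lost in 8 of 10 fits that left out a mouse and in 5 other settings, limma-voom (adjusted p = 0.0606) among them. Cebpd, at -1.22 ± 0.54 (adjusted p = 0.139), was not called there.

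Around the members, 11 of 43 partners and relatives were higher and 8 lower with hormone in control mice, beside 20.3% and 22.9% of all tested genes. The largest were Klf5, a Krüppel-like factor of early adipogenesis (4.29 ± 1.23, adjusted p = 0.00536), Klf13 (1.46 ± 0.27), Klf9, a thyroid hormone target in other tissues (1.39 ± 0.34), and Zfp467 (-1.36 ± 0.26). Among Jag antibody mice 2 were higher and 3 lower, led by Srebf1 of lipid synthesis (-1.12 ± 0.32), Foxo1 (1.02 ± 0.28), Zfp467 (-0.97 ± 0.26) and Klf13 (0.81 ± 0.27), the last called in 1 of 10 fits that left out a mouse. Of the 26 PPARG and C/EBP targets, 7 fell and 1 rose in control mice, beside the same 22.9% of all tested genes lower and 20.3% higher. Agpat2, which builds phosphatidic acid, fell by 2.27, the secreted factor Cfd by 2.08, Cidea of the lipid droplet by 2.05 and the fatty acid carrier Fabp4 by 1.77 (adjusted p = 1.47e-05). For Jag antibody mice 4 fell and 0 rose, beside 5.21% of all tested genes lower: Cfd by 2.42, Agpat2 by 1.5, Cidec by 1.48 and Adipoq by 1.24. Of the 9 KLF15 targets 5 fell and 0 rose in control mice, among them Hpd by 2.12, Slc25a25 by 1.20, Bckdhb by 0.78 and Bcat2 by 0.77, while Klf15 itself was not called. The Bckdhb call was lost once length and GC offsets were added (adjusted p = 0.88). Under the Jag antibodies 1 was called, Prodh at 0.87 (adjusted p = 0.0393), which held in 4 of 9 settings.

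Several marker sums moved with hormone in control mice. The adipocyte sum was 29700 to 53500 CPM without and 14700 to 19100 CPM with hormone, and the brown fat sum 13800 to 44200 and 4690 to 9020 CPM. In the other direction, the progenitor and fibroblast sum was 722 to 1210 without and 2300 to 4570 CPM with hormone, the endothelial sum 417 to 789 and 812 to 1130, the macrophage and neutrophil sum 50.4 to 90.1 and 213 to 449, and the sum of 8 proliferation genes 4.69 to 8.74 and 72.3 to 162 CPM. None of these 6 ranges overlapped, in a comparison where 29.8% of all tested genes did not overlap. By gene, 3 of 8 adipocyte and 5 of 10 brown fat genes were called lower and 0 higher. Beside them, 22.9% of all tested genes were called lower and 20.3% higher. Called higher were 5 of 8 progenitor and fibroblast, 5 of 8 endothelial, 5 of 8 macrophage and neutrophil and 8 of 8 proliferation genes. Emcn, an endothelial gene, was called lower (-1.08, adjusted p = 6.03e-05). The neutrophil genes S100a8 and S100a9 were at -0.23 and -0.73, not called. With the Jag antibodies the proliferation sum was 3.68 to 12.9 CPM without and 15.2 to 85.8 CPM with hormone, and 8 of its 8 genes rose. There 4 of 8 progenitor and fibroblast genes rose (sums of 532 to 962 and 913 to 2250 CPM) and 2 of 8 adipocyte genes fell (23700 to 40600 and 19200 to 25500 CPM). Of all tested genes 9.5% were called in Jag antibody mice, 5.21% of them all as lower. The part of these sums in the hormone differences of the factors was not tested. Across libraries, after removal of group means, Esrra followed the brown fat sum (r = 0.77, n = 40) and Zfp516 ran against it (r = -0.55), both with library composition in common. With the libraries' length slope, Esrra was at r = -0.52 and Zfp516 at 0.71 in the same way. The part of either measure was not tested.

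Between 15 h and 5 d, Klf15 and Esrra rose in control mice, 2 of 10 against 36.4% of all tested genes called and 16.2% higher. From 5 d to 7 d 1 of 10 fell, Cebpa, against 9.13% called and 4.42% lower. With the Jag antibodies 1 of 10 rose from 15 h to 5 d (Cebpb, against 14.5% called and 8.22% higher) and 1 of 10 from 5 d to 7 d (Zfp423, against 3.29% called and 2.01% higher). Each 5 d group serves in both of its time comparisons. As 15 h is not a whole number of days, the hour of day at collection may also differ between 15 h and 5 d. Time since injection and hour of day cannot be told apart there. The skeletal muscle sum of control mice was 2.86 to 11700 CPM at 15 h and 1020 to 176000 CPM at 5 d, and their progenitor and fibroblast sum 733 to 1340 and 1310 to 4920 CPM. Of 8 macrophage and neutrophil genes 5 fell in that comparison (median -2.45), with sums of 107 to 3060 CPM at 15 h and 104 to 282 CPM at 5 d. At 7 d the progenitor and fibroblast sum of control mice was 722 to 1210 CPM, below all mice of 5 d, and 7 of its 8 genes fell. In Jag antibody mice the proliferation sum was 7.76 to 13.1 CPM at 15 h, 9.79 to 39.7 at 5 d and 3.68 to 12.9 at 7 d, and 5 of its 8 genes fell from 5 d to 7 d. The part of these sums in the differences between times was not tested. The median change of the 10 was 0.25 and -0.42 in control mice and 0.32 and -0.11 in Jag antibody mice, in order of time, beside -0.01, 0.01, -0.02 and 0.01 over all tested genes.

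**Figure D5:**
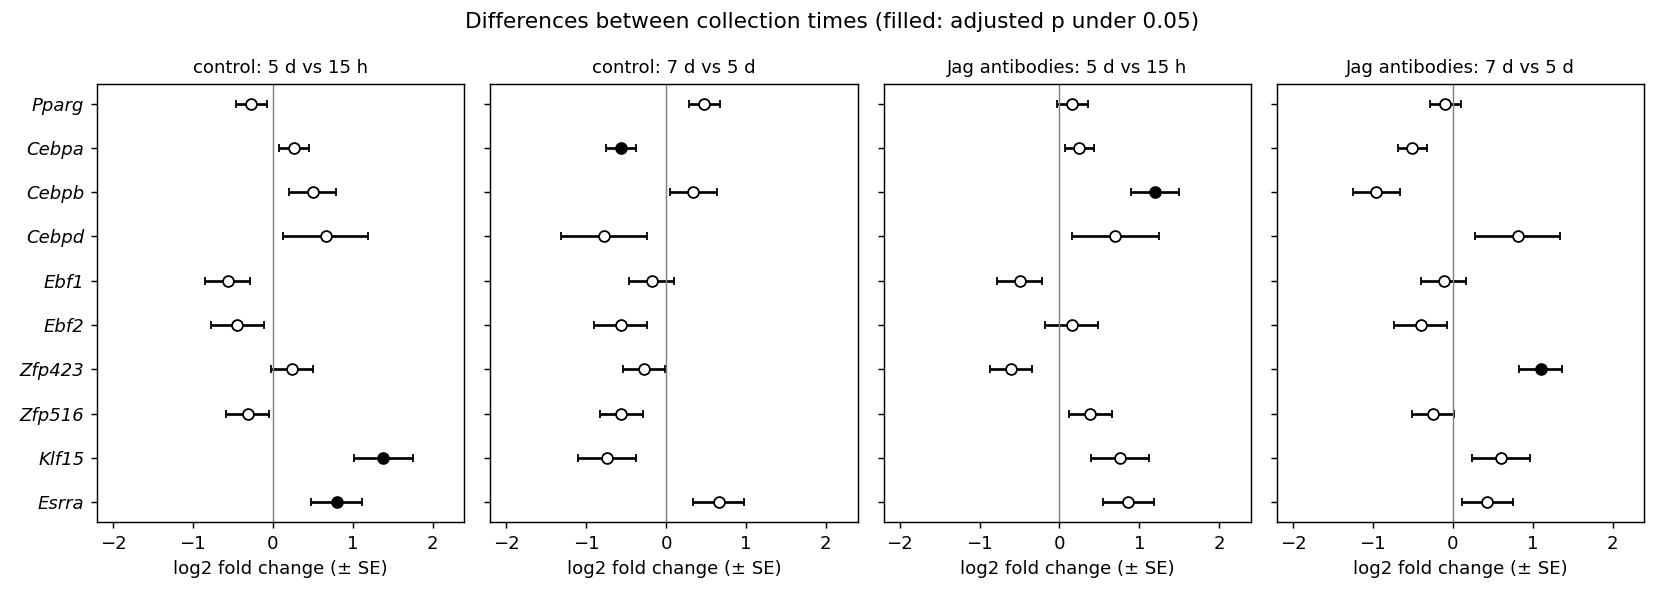
Log2 fold change of each factor between successive collection times (horizontal axis, ± SE, 5 mice per group) in control mice and Jag antibody mice; filled points have an adjusted p under 0.05. The filled points are Klf15 (1.38) and Esrra (0.80) from 15 h to 5 d and Cebpa (-0.56) from 5 d to 7 d in control mice, and Cebpb (1.20) from 15 h to 5 d and Zfp423 (1.10) from 5 d to 7 d in Jag antibody mice.

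In control mice Klf15 measured 31.4, 7.56, 8.39, 27.5 and 28.5 CPM at 15 h and 32.3, 39.6, 64.1, 67.7 and 66.2 CPM at 5 d. The groups did not overlap, as for 1 of 10 members and 10.4% of all tested genes in this comparison. Klf15 rose by 1.38 ± 0.37 (adjusted p = 0.00458), 2.61-fold. The lowest mice at 15 h, mice 2 and 3, had the highest macrophage and neutrophil sums of their group, 3060 and 696 CPM. In a fit of these 2 groups alone the difference was 1.44 (adjusted p = 0.074), and 0 of all genes were called. The mice collected at 7 d were lower again, at -0.74 ± 0.36 against 5 d (adjusted p = 0.179, not called). Among Jag antibody mice the estimates were 0.76 ± 0.36 from 15 h to 5 d (adjusted p = 0.145) and 0.60 from 5 d to 7 d. From 15 h to 5 d, 36.4% of all tested genes were called in control mice and 14.5% in Jag antibody mice. Of the KLF15 targets, 5 of 9 were higher and 0 lower at 5 d than at 15 h in control mice, with Hpd at 1.85, Gpt at 1.47, Prodh at 1.39 and Bcat2 at 0.90. For Jag antibody mice 5 were higher and 1 lower, with Per1, a clock gene, at 2.01, Slc25a25 at -1.56, Gpt at 1.13 and Prodh at 1.03. Bcat2 was at 0.76 from 5 d to 7 d (adjusted p = 0.0451), a call that held in 3 of 9 settings and in 2 of 10 fits that left out a mouse.

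Esrra measured 91.3, 29.1, 44.7, 87.0 and 101 CPM at 15 h and 65.1, 230, 117, 101 and 104 CPM at 5 d in control mice. The groups overlapped, and Esrra rose by 0.80 ± 0.32 (adjusted p = 0.0459). That call was lost with length and GC offsets (0.40, adjusted p = 0.28), with the muscle score (0.0531), in the fit of the 2 groups alone (0.166) and without control mouse 2 at 15 h (0.126), control mouse 3 at 15 h (0.107), control mouse 2 at 5 d (0.199) or control mouse 3 at 5 d (0.0594). Without control mouse 2 at 15 h, the library rich in macrophage and neutrophil transcripts, 1 member was called in place of 2. Under the Jag antibodies the estimate was 0.86 ± 0.32 (adjusted p = 0.0617). From 5 d to 7 d the estimates were 0.66 ± 0.32 in control mice (adjusted p = 0.174) and 0.43 in Jag antibody mice, and the former passed with the offsets (0.82, adjusted p = 0.0477). The share of all tested genes called from 15 h to 5 d was 36.4% in control mice and 14.5% in Jag antibody mice. Of the 18 ESRRA targets, 7 rose and 1 fell from 15 h to 5 d in control mice, among them Cox5b (1.18), Mdh2 of the citrate cycle (0.97) and Uqcrc1 (0.78). With the Jag antibodies 5 rose and 0 fell, among them Cox5b (1.18), Mdh2 (0.82) and Cs (0.73). From 5 d to 7 d, 1 rose in control mice (Cycs, 1.05) and 0 were called in Jag antibody mice. With length and GC offsets the calls of Cox5b (adjusted p = 0.16) and Uqcrc1 (0.129) in control mice and of Mdh2 (0.0612) in Jag antibody mice were lost.

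Cebpa, the partner of Pparg in the mature fat cell, had its lowest mean at 7 d among control mice, 337 ± 94.3 CPM (SD, n = 5). It measured 543, 611, 446, 535 and 354 CPM at 5 d and 341, 264, 373, 473 and 235 CPM at 7 d. These overlapped, and Cebpa fell by 0.56 (SE 0.18, adjusted p = 0.0479), a call lost in 7 of 10 fits that left out a mouse, and in 5 other settings, limma-voom and the fit of the 2 groups alone (adjusted p = 0.266) among them. Among Jag antibody mice it measured 621, 584, 576, 609 and 642 CPM at 5 d and 335, 379, 448, 423 and 552 CPM at 7 d, at -0.50 ± 0.18 (adjusted p = 0.113) and without overlap, as for 1 of 10 members and 4.13% of all tested genes. Pparg was at 0.48 ± 0.19 from 5 d to 7 d in control mice (adjusted p = 0.108) and at -0.10 in Jag antibody mice. Across groups Pparg means ran from 311 ± 79.0 CPM in control mice at 5 d to 433 ± 89.6 CPM in control mice at 7 d, and in that order the mean ± 1 SD of each group overlapped that of its neighbour.

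Counts for their target genes and partners stand beside those of all tested genes. In control mice 36.4% of all tested genes were called from 15 h to 5 d and 9.13% from 5 d to 7 d. In Jag antibody mice the shares were 14.5% and 3.29%. The counts below are thus not read as particular to these lists. Of the 26 PPARG and C/EBP targets, 7 rose and 3 fell from 15 h to 5 d in control mice, with the adipokine Retn at 1.98, Agpat2 at 1.73, Cfd at 1.61 and Dgat2, which makes triglyceride, at 0.93. With length and GC offsets these 4 were not called (adjusted p from 0.0561 for Agpat2 to 0.326 for Dgat2). For Jag antibody mice 2 rose and 2 fell, among them Lep at -2.80, Pnpla2, the triglyceride lipase, at 0.82 and Gpihbp1, which anchors lipoprotein lipase, at 0.73. From 5 d to 7 d 2 rose and 0 fell under each antibody: Agpat2 (1.58) and Fabp4 (1.05) in control mice, Retn (2.70) and Pnpla3 (1.54) in Jag antibody mice. The calls of Retn and Pnpla3 each held in 3 of 9 settings and in 2 of 10 fits that left out a mouse. Among the 43 partners and relatives, 13 rose and 5 fell from 15 h to 5 d in control mice, led by Esrrb (2.01), Dlk1 of preadipocytes (1.56), Srebf1 (1.52) and Ebf4 (1.48). Under the Jag antibodies 4 rose and 1 fell, with Foxo1 at 1.53, Klf2 at 1.44, Gata2, a brake on adipogenesis, at 1.08 and Rxrb at 0.67. From 5 d to 7 d 2 rose and 2 fell in control mice, Zfp521 at -1.5, Ppara of fatty acid oxidation at -1.43, Mlxipl at 1.16 and Cebpg at 0.72, and 2 rose in Jag antibody mice, Ppard at 0.90 and Cebpg at 0.53. The antibody difference shifted from 5 d to 7 d for 1 of the 43, beside 1.29% of all tested genes. That was Rxra at 0.97 ± 0.24 (adjusted p = 0.0405), a call lost with the muscle score (0.584).

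Cebpb in Jag antibody mice measured 34.7, 45.3, 42.6, 40.3 and 58.1 CPM at 15 h, 109, 138, 51.6, 103 and 104 CPM at 5 d, and 26.6, 68.5, 93.0, 29.5 and 43.2 CPM at 7 d. At 5 d 4 of 5 mice lay above all mice of 15 h. Cebpb rose by 1.20 ± 0.30 from 15 h to 5 d (adjusted p = 0.00882), but by 0.19 (adjusted p = 0.703) with length and GC offsets, so the call was lost with them. The length slopes of these libraries were 0.07 to 0.12 at 15 h and -0.26 to 0.23 at 5 d. From 5 d to 7 d the difference was -0.96 ± 0.30 (adjusted p = 0.0646), and it passed with the offsets (-1.18, adjusted p = 0.0125), in limma-voom (0.045) and in DESeq2 (0.0262). The antibody difference of Cebpb shifted by -1.30 ± 0.42 from 5 d to 7 d (adjusted p = 0.087), 1 of 5 such shifts with an unadjusted p under 0.05, against 16.7% of all tested genes. The others were Zfp423 (1.38 ± 0.38, adjusted p = 0.0535), Klf15, Cebpd (1.59 ± 0.76, adjusted p = 0.285) and Pparg (-0.57 ± 0.27, adjusted p = 0.284). No member was called for this shift in the edgeR fit, against 1.29% of all tested genes, while DESeq2 called 2.

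Cebpd, the other early C/EBP factor, was called in no comparison of the edgeR fit. Its group means lay between 2.46 ± 1.10 CPM (Jag antibody mice at 15 h) and 8.30 ± 6.87 CPM (control mice at 5 d), and its estimates carried SEs of 0.53 to 0.76. It shares 562 bases of exon with Spidr on the opposite strand, which had 7808 counts in all libraries against 3851 for Cebpd. Whether counting used the strand is not given in the sources used here, so reads of the pair may have been mixed. Smaller overlaps were 424 bases of Ebf2 with Gm10860, 312 of Cebpb with Tmem189, 91 of Esrra with Mir6990 on the same strand, 73 of Esrra with Trmt112 and 51 of Cebpa with Gm45091, each partner with fewer counts than the member.

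Zfp423, the precursor commitment factor, was lowest in Jag antibody mice at 5 d, at 5.24, 4.53, 9.65, 8.46 and 6.92 CPM, and highest in Jag antibody mice at 7 d, at the 8.35 to 24.1 CPM given above. It rose by 1.10 ± 0.27 between them (adjusted p = 0.0197), and the groups overlapped in that 2 of 5 mice at 7 d lay below the highest mouse at 5 d. From 15 h to 5 d it was at -0.61 ± 0.27 (adjusted p = 0.115), and passed with length and GC offsets (-0.81, adjusted p = 0.0289). The call from 5 d to 7 d was lost without mouse 6 (adjusted p = 0.0639) or mouse 7 (0.0636) at 5 d or mouse 8 at 7 d (0.0621), and in the fit of the 2 groups alone (0.129). In control mice its means stayed between 8.11 ± 2.61 CPM at 7 d and 10.3 ± 1.38 CPM at 7 d with hormone. The Jag antibody mice at 7 d also enter the antibody difference at 7 d, the hormone difference under the Jag antibodies and both interactions of Zfp423. Those values and the rise from 5 d to 7 d are thus not independent.

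Ebf1 and Ebf2, early B cell factors that open chromatin for PPARG in fat precursors, moved together across mice, with r = 0.75 over the 40 libraries and 0.72 after removal of group means. Neither was called in any comparison of the edgeR fit. Ebf1 means ran from 55.2 ± 18 CPM in control mice at 7 d to 127 ± 14.9 CPM in Jag antibody mice at 15 h. Ebf2 means ran from 38.8 ± 14.7 CPM in control mice at 7 d to 82.4 ± 27.1 CPM in Jag antibody mice at 5 d. B cell transcripts, the other place of Ebf1, were scarce. The sum of 8 B cell genes was 1.88 to 14.1 CPM in every group but Jag antibody mice at 15 h. In that group mouse 6 alone stood at 99.5 CPM, and the other mice were at 4.18 to 8.06 CPM. Both EBF genes have long transcripts (9.76 kb and 6.93 kb of exon) and followed the libraries' length slope within groups (r = 0.72 and 0.59). This was not particular to them, as Zfp516, with 8.28 kb of exon, did so too (r = 0.71). Ebf1 and Ebf2 also followed the endothelial sum (r = 0.52 and 0.63), as did Zfp516 (r = 0.61). With the pericyte and smooth muscle sum Ebf1 was at r = 0.54 and Ebf2 at 0.48. The part of these measures in the levels of the EBF genes was not tested.

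In the order of group means, the intervals of mean ± 1 SD of neighbouring groups overlapped for 9 of the 10 members. The exception was the top of the Cebpa order, where Jag antibody mice at 5 d (606 ± 27.3 CPM) stood clear of Jag antibody mice at 15 h (510 ± 54.6 CPM) by their SDs, although the highest mouse at 15 h, at 591 CPM, exceeded the lowest at 5 d, at 576 CPM. Klf15 ran from 20.7 ± 11.7 CPM in control mice at 15 h to 95.3 ± 18.8 CPM in Jag antibody mice at 7 d. Esrra ran from 70.7 ± 31.8 CPM in control mice at 15 h to 195 ± 43.9 CPM in control mice at 7 d. Zfp516 ran from 7.88 ± 1.42 CPM in control mice at 7 d to 16.2 ± 1.52 CPM in control mice at 7 d with hormone, and Cebpb from 38.8 ± 6.57 CPM in Jag antibody mice with hormone to 101 ± 31.2 CPM in Jag antibody mice at 5 d.

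For each member the 2 genes with the most similar log2 CPM over the 40 libraries were taken from genes with a mean log2 CPM of at least 3. Esrra had the closest matches, Pex14 (r = 0.96) and Mcrip2 (0.95), and Zfp423 the loosest, Sugp2 and Rxra (both 0.62). Ebf1 was matched by Clock (0.92) and Camsap2 (0.91), Ebf2 by Trim2 and Rhoq (both 0.86), and Zfp516 by Cttnbp2nl (0.90) and the Notch receptor gene Notch1 (0.89). Pparg was matched by Gm15285 (0.87) and Etfa (0.84), Cebpa by Pck1 (0.84) and Tmeff1 (0.82), Cebpb by Cd81 (0.85) and Atg7 (0.81), and Cebpd by Mcrip1 (0.81) and Pkig (0.78). For Klf15 they were Bcat2 (0.80) and Cyp2b10 (0.79). Between members, Klf15 and Esrra correlated at 0.50, Pparg and Esrra at 0.46 and Cebpd and Ebf2 at -0.56. All these values describe libraries that share depth, composition and group differences.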

How the data were processed

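The authors deposited whole-number counts per Ensembl gene for 52636 genes and 40 libraries. Reads were 50 bp and single-end, per the labels' protocols. GSNAP and limma appear in the submitters' processing notes, and the genome build and the strand setting of counting are not given in the sources used here. The companion FPKM table was not used. Symbols matched 52403 genes, and lengths came from GENCODE M21 on GRCm38.

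Tests on the counts used edgeR 4.0.16 under R 4.3.3 (filterByExpr, TMM, robust quasi-likelihood F test, 1 model of 8 group means over 40 libraries) with Benjamini-Hochberg adjustment over 17079 genes at 0.05. There were 10 comparisons of 2 groups and 2 interactions. SEs are those implied by the F statistic, and log2 CPM has a prior count of 2. The methods were tested on simulated data. No count column was left without a sample.

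Alternatives were DESeq2 1.42.0, limma-voom (limma 3.58.1), RLE size factors, no low-count filter, only the groups compared, a muscle score covariate (mean log2 CPM of 8 muscle genes), length and GC offsets per library (trends fitted over 10637 genes), a replicate block, and leaving out each mouse. All 10 members are described in all groups, with fold change, SE and adjusted p where the unadjusted p is under 0.05. Of each list up to 4 called genes with the largest log2 fold change are named per comparison, and the 2 most similar genes per member; the mention of Pdk4 was chosen after its value was seen. Some called genes of the lists are counted but not reported by name here. Members and lists were chosen with earlier results of these data known. The 13 lists of partners, targets and cell markers and their tested numbers stand beside the results. Some genes, such as Cidec, are on more than 1 list.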

Additional observations from a re-analysis of the deposited data

Results flagged for a closer look

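In 3 of 80 sets of 5 mice (10 factors in 8 groups), 1 mouse stood apart from the other 4 by more than the Dixon limit of 0.71, a ratio of its gap to the whole range; about 1 in 20 sets, here 4, would pass this limit by chance. Cebpa in control mouse 2 at 15 h was the lowest of its group at 7.99 log2 CPM, with the nearest mouse at 8.72. The same library had the lowest brown fat marker sum, 2000 CPM, and the highest macrophage and neutrophil sum, 3060 CPM. Ebf2 in Jag antibody mouse 7 at 15 h was the highest at 6.84 log2 CPM, with the nearest mouse at 6.11. Esrra in control mouse 1 at 7 d was the lowest at 6.88 log2 CPM, with the nearest mouse at 7.67.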

How the results depend on the processing

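Counts of called members out of 10 changed as follows. Fitting only the groups compared gave 0 at 7 d (antibody, 1 in the report), 1 at 7 d with hormone (0 in the report), 0 from 15 h to 5 d in control mice (2 in the report) and 0 from 5 d to 7 d under each antibody (1 each in the report). DESeq2 gave 2 for the antibody at 7 d, 6 for hormone in control mice (3 in the report), 2 from 5 d to 7 d in Jag antibody mice and 2 for the antibody by time interaction (0 in the report). RLE size factors gave 5 for hormone in control mice, 0 for hormone in Jag antibody mice (1 in the report) and 1 for the antibody by time interaction. With no low-count filter there were 0 for hormone in Jag antibody mice and 0 from 5 d to 7 d in control mice. Limma-voom gave 0 for both of these and 2 from 5 d to 7 d in Jag antibody mice. Length and GC offsets gave 2 for hormone in Jag antibody mice, 1 from 15 h to 5 d in control mice and 2 from 5 d to 7 d in Jag antibody mice, and the muscle score gave 1 from 15 h to 5 d and 0 from 5 d to 7 d in control mice. Leaving out 1 mouse gave 0 to 0 members for the antibody at 15 h, 0 to 1 at 5 d, 0 to 2 at 7 d and 0 to 0 at 7 d with hormone. For hormone it gave 2 to 5 in control mice and 0 to 1 in Jag antibody mice. For the times it gave 1 to 3 and 0 to 2 in control mice and 1 to 2 and 0 to 2 in Jag antibody mice, and for the interactions with hormone and time 0 to 0 and 0 to 1. The causes were not tested.

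Mice with the same number are different animals, and deviations of same-numbered mice correlated at a mean of 0.08 to 0.19 per comparison, with a lowest pair of -0.36; 1 to 4 of 5 mice correlated best with their own number. The replicate block gave 0 members for hormone in Jag antibody mice, 1 from 15 h to 5 d in control mice and 1 for the antibody by time interaction. With length and GC offsets as well it gave 1 from 15 h to 5 d and 2 from 5 d to 7 d in control mice and 3 from 5 d to 7 d in Jag antibody mice, and Zfp516 with hormone in control mice was at 0.52 (adjusted p = 0.0614). Antibody groups share no number, so no block could be fitted there.

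Counts over all genes moved by over 1.5 times in most comparisons. For the antibody they were 194 at 15 h (0 with only the groups compared, 577 in DESeq2), 1369 at 5 d (89 with the muscle score), 427 at 7 d (35 with only the groups, 858 in DESeq2) and 194 with hormone (117 with no filter, 662 with only the groups). Hormone in Jag antibody mice gave 1622 (990 with no filter, 2663 with only the groups). Over time, control mice gave 6214 (0 with only the groups) and 1559 (138), and Jag antibody mice 2470 (1429 with block and offsets, 3758 with only the groups) and 562 (130 with only the groups, 1331 in DESeq2). The interactions gave 1 (0 to 9) and 220 (0 with the muscle score, 964 in DESeq2). Of 760 values for 88 results on named genes of the lists, 613 stayed on the same side of the threshold, 147 no longer passed and 0 reversed. Cebpd, at 24 to 465 counts, is the member most limited by depth.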
